A study of Mus musculus with 6 samples.

Results

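The genes described here encode the structural matrix of the islet: the collagens, the laminins, the proteins that tie them into a basement membrane, and a few proteins typical of fibroblasts. They were taken from the deposited count table by symbol (every gene named Col or Lama, Lamb or Lamc with a chain number, plus Nid1, Nid2, Hspg2, Fn1, Sparc, Dcn, Lum, Mgp, Thy1 and Pdgfra). A gene was kept when its count exceeded 10 in at least 3 libraries. Of 34945 gene symbols in the table, 65 carried such a name and 52 passed the count rule. By structure, 18 of the 52 were basement membrane genes, 3 were collagens bound to basement membranes, 8 were fibrillar collagens, 6 were fibril-associated collagens, 8 were beaded filament and short-chain collagens, 2 were transmembrane collagens and 7 were fibroblast or other matrix genes. Just inside the threshold, Pdgfra had 13, 15 and 3 counts in the control libraries and 6, 1 and 31 in the Jag1 libraries. Just outside it, Col11a1 had 3, 3 and 4 against 16, 8 and 10.

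The study measured polyadenylated RNA in islets isolated from mouse pancreas, with 3 libraries in each group. Both groups carried RIP-Cre and Rosa26-rtTA, and all animals received doxycycline in their drinking water for 8 weeks. Islets of the Jag1 group had in addition tetO_Jag1, a Jag1 transgene switched on by doxycycline through rtTA, which the control group lacked. The rat insulin promoter of RIP-Cre confines recombination largely to beta cells, while the RNA came from whole islets with all the cell types they hold. Strain, sex and age were not given. The labels do not say that the libraries came from separate mice, so each p-value reflects only how much the libraries differed, which may be technical.

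Basement membranes are thin sheets of extracellular matrix. Their laminin trimers form one network and their collagen IV trimers another, and nidogens and perlecan join the networks. In islets, beta cells do not lay down their own basement membrane, and endothelial cells of the islet capillaries are its main source. Fibrillar collagens such as types I and III are made mostly by fibroblasts and other stromal cells, and they form the interstitial matrix around the islet and along its larger vessels. In bulk RNA, a larger number of cells of one type and more RNA per cell cannot be told apart.

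Library totals ranged from 14283469 to 34348729 counts. Jag1, the targeted gene, stood at 4.28, 4.01 and 4.01 CPM (the count scaled to the library's normalised total) in Control 1, 2 and 3 and at 837, 524 and 906 CPM in Jag1 1, 2 and 3, with a log2 difference of 7.52 (edgeR adjusted p = 1.54e-07). The islet hormone genes Ins1, Ins2, Iapp, Gcg and Sst together reached 173300 to 229400 CPM in every library. Exocrine material varied within both groups: 16 acinar genes, which encode digestive enzymes and their regulators, summed to 83760, 26080 and 2902 CPM in the controls and 5804, 20100 and 80350 CPM in the Jag1 libraries. Jag1 3 stood apart for the matrix genes themselves. It had the highest CPM of the 6 libraries for 35 of the 52 matrix genes (67.3%), against 14.7% of the 14073 genes tested, a count made after its values had been seen. For that reason the class medians and the differences of the genes highest in Jag1 3 are also given without it. In the sentences that follow, a set of 6 values is in CPM and runs Control 1, 2 and 3, then Jag1 1, 2 and 3.

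The start regions are shown for 5 genes that the results below single out, though no expression result rests on these sequences. The genes are Col4a1 and Col4a2, which share a start region and kept a steady ratio, and Col1a2 and Col3a1, which varied widely between libraries. The fifth is Col18a1, which had the smallest p of the 52. Each window is the RefSeq sequence of build GRCm38.p6, read 5′ to 3′ on the gene's own strand, from 250 bases before the annotated start through 50 bases after it. Capitals mark 4 short motifs searched on both strands: the CCAAT box, the GC box GGGCGG, the TATA box TATAAA, and TGGGAA, the core bound by the Notch effector RBPJ. A motif on the opposite strand is in capitals as its reverse complement. No marked stretch overlaps another. The Col4a1 window lies at chr8:11312777-11313076 on the minus strand and that of Col4a2 at chr8:11312555-11312854 on the plus strand. Col1a2 is shown at chr6:4505368-4505667 and Col3a1 at chr1:45311288-45311587, both on the plus strand. Col18a1 has an upstream start at chr10:77166481-77166780 and a downstream one at chr10:77113656-77113955, both on the minus strand.
Col4a1: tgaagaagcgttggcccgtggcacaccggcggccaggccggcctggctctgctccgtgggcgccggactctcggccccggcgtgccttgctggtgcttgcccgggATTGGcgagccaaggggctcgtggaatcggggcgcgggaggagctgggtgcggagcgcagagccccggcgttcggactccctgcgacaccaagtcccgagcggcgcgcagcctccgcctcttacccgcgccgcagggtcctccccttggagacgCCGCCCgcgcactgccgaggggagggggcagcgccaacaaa
Col4a2: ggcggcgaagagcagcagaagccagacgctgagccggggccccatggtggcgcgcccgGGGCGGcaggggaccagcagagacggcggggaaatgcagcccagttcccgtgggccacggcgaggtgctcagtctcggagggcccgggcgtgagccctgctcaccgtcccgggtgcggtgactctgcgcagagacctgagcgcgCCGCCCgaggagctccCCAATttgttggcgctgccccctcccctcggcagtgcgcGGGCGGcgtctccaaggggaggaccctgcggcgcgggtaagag
Col1a2: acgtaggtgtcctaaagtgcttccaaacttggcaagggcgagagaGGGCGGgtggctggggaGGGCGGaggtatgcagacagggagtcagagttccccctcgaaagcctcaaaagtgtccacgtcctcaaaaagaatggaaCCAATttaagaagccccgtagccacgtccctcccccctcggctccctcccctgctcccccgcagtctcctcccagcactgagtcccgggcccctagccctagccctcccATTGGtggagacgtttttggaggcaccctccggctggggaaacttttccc
Col3a1: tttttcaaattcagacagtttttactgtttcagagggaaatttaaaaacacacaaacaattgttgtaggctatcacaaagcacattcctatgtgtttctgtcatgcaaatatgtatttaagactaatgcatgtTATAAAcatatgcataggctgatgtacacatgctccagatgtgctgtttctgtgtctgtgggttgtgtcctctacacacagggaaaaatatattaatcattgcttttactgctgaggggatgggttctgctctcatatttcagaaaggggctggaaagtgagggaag
Col18a1, upstream start: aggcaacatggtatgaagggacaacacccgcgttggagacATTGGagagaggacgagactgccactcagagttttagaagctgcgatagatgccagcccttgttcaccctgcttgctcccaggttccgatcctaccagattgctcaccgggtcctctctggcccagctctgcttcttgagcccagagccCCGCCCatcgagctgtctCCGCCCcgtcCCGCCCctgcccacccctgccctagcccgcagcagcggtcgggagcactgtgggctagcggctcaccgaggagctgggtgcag
Col18a1, downstream start: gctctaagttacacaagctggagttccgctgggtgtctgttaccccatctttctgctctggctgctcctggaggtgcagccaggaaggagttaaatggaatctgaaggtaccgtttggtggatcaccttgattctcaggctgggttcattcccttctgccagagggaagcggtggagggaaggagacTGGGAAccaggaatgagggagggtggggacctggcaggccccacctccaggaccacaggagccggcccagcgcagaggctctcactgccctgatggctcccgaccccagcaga

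The annotated starts of Col4a1 and Col4a2 lie 21 bases apart on opposite strands, and their windows share 78 bases. CCAAT was present in both of these windows and in that of Col1a2, and TATAAA was the only one of the 4 motifs in the Col3a1 window. Start regions were matched for 35 of the 52 genes (38 windows), Col1a1 not among them. GGGCGG was found in 23 of the 38 windows, against 35.7% of 32851 windows of the same length across all genes, and CCAAT in 11, against 37.4%. TATAAA was in 3 of the 38, against 13.6%, including 2 of the 6 fibrillar windows and 0 of the 12 basement membrane windows. TGGGAA was found in 13 of the 38, against 25.6%, including 7 of the 12 basement membrane windows and 0 of the 6 fibrillar windows. These matches describe letters only, and no binding was measured.

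Per kilobase of transcript, the matrix RNA of these islets was led by basement membrane genes and by Sparc and Mgp. Sparc, which encodes a collagen-binding protein secreted together with basement membrane collagen, had 32.6 CPM per kilobase on average over the 6 libraries, with a range of 23.7 to 49.8. Col4a1 followed at 17.4 CPM per kilobase (12.6 to 24.2), then Mgp, an inhibitor of calcification, at 14.6 (11.8 to 21.2). Col4a2 had 11.1 CPM per kilobase (7.99 to 14.9). The ranges of neighbours in this order overlapped.

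The fifth place was held by Col6a6, a collagen VI chain, at 8.89 CPM per kilobase (7.88 to 10.8). Its partners were lower on the same scale: 1.32 for Col6a1, 0.930 for Col6a2 and 1.06 for Col6a3, and the highest library of Col6a1 (2.81) was under the lowest of Col6a6. Collagen V was uneven as well. Col5a2 had 3.60 CPM per kilobase (2.96 to 3.96), against 0.179 for Col5a1 and 0.205 for Col5a3, the other chains of that fibril-initiating collagen. Among the interstitial collagens, Col1a2 had 2.11 CPM per kilobase and Col1a1 0.708, below Col3a1. Pdgfra, the fibroblast surface receptor, was last of the 52 at 0.0955 CPM per kilobase.

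**Figure D1:**
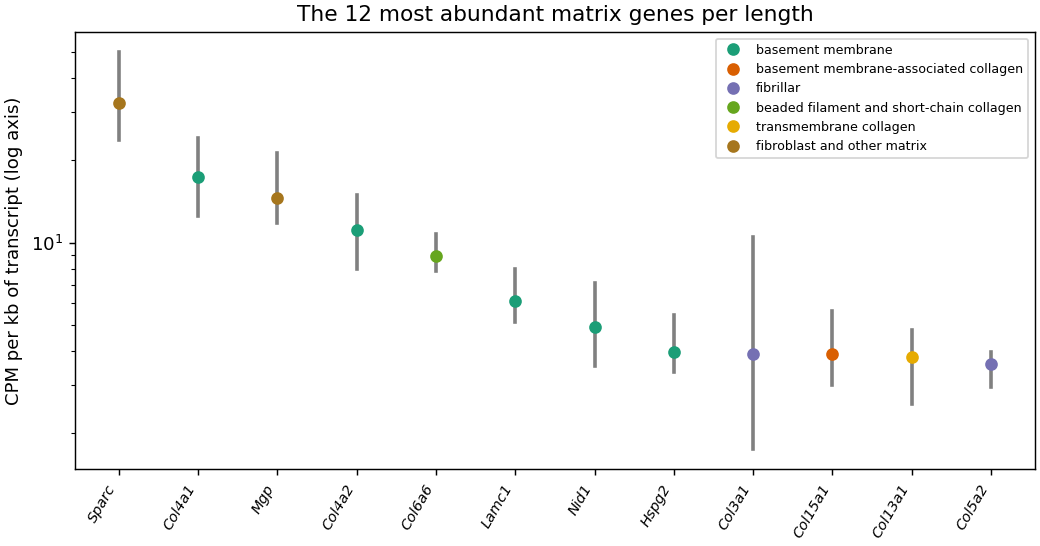
The 12 matrix genes with the most CPM per kilobase of longest annotated transcript: points give the mean of the 6 libraries, grey bars run from the lowest to the highest library, and colour gives the class of gene. Sparc leads at 32.6, Col4a1 follows at 17.4, and Col6a6, at 8.89, is the only collagen VI chain among the 12.

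No matrix gene passed the test between Jag1 and control islets. edgeR called 3 of 14073 genes at an adjusted p under 0.05 (0.0213%), none of them among the 52. DESeq2 called 36 (0.256%) and limma-voom 4, again with none of the 52 among them. At an unadjusted p under 0.05, edgeR had 2 of the 52, Col18a1 and Col4a4, where 4.97% of all genes lay under it. Both of these had all their Jag1 values above all their control values, a pattern seen for 5.3% of all genes. Col27a1 alone was lower in every Jag1 library, a pattern seen for 5.21%. The fitted log2 difference, Jag1 minus control, was positive for 40 genes and negative for 12, with a median of 0.15, where the median of all genes tested was -0.0041. Without Jag1 3, 13 genes were positive and 39 negative, and the median was -0.21. The authors' deposited table also gave no matrix gene an adjusted p under 0.05, and its smallest value among the 52 was 0.929.

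Collagen IV was dominated by its ubiquitous chains. Col4a1 stood at 94.2, 126 and 117 in the controls and 83.0, 111 and 160 in the Jag1 libraries. Col4a2 stood at 64.4, 80.4 and 68.9, then 51.5, 67.0 and 96.3. For both genes Jag1 1 was the lowest library and Jag1 3 the highest, so the Jag1 libraries enclosed the controls on both sides. The log2 differences were 0.07 (SE 0.24, edgeR adjusted p = 0.994) for Col4a1 and 0.01 (SE 0.21, edgeR adjusted p = 1.00) for Col4a2. Without Jag1 3 they were -0.21 and -0.26, and limma-voom put Col4a2 at -0.04 with all libraries. The Col4a1 to Col4a2 ratio of CPM stayed between 1.46 and 1.70 in all 6 libraries, a narrower band than either gene's own range of 1.93-fold and 1.87-fold. A steady ratio is not shown to be particular to this pair, since no other pair was measured this way. Col15a1 on chromosome 4 (range 1.87-fold) and Lamb1 on chromosome 12 (1.96-fold) also had Jag1 1 lowest and Jag1 3 highest. The genes lie head to head, Col4a1 at chr8:11198423-11312826 and Col4a2 at chr8:11312805-11449287 (GRCm38), as the start regions above show.

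The chains of more restricted tissues were scarce. Col4a4, which joins Col4a3 and Col4a5 in the collagen IV of the kidney glomerulus, the lens and the inner ear, stood at 1.70, 1.04 and 1.43, then 1.96, 2.61 and 2.71. Its groups did not overlap, and the difference was 0.81 (SE 0.36, edgeR adjusted p = 0.955), or 0.73 without Jag1 3. Col4a3, its neighbour, stood at 2.80, 2.14 and 1.90, then 2.71, 2.24 and 3.36, with overlap and a difference of 0.27, or 0.11 without Jag1 3. Col4a5 was spread widest within the controls, at 3.45, 1.54 and 3.06, and the Jag1 libraries (2.65, 2.61 and 3.19) lay inside that range. Col4a6 did not reach the count rule, with at most 8 counts in a library.

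Among the laminins, Lamc1 had the highest CPM in every library. Lamc1, the gamma chain shared by most laminins, stood at 42.5, 43.6 and 50.8, then 41.2, 39.0 and 61.1, a difference of 0.04 (SE 0.17, edgeR adjusted p = 0.995). Lamb1, the usual beta chain, stood at 15.2, 17.9 and 18.5, then 11.8, 14.8 and 23.2. Lama4, the alpha chain of endothelial laminin, stood at 10.2, 13.1 and 16.9, then 11.2, 12.7 and 20.2. All 3 genes were highest in Jag1 3, and in each the other Jag1 libraries lay inside or below the control range. Without that library the differences were -0.19 for Lamc1, -0.36 for Lamb1 and -0.16 for Lama4. Lama5, the alpha chain of mature vessels and epithelia, did not follow them: 8.99, 7.53 and 10.7, then 6.42, 7.39 and 10.3, highest in Control 3. Its difference was -0.17 (SE 0.22, edgeR adjusted p = 0.967).

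Lama2, the alpha chain of muscle and peripheral nerve, stood at 5.48, 4.78 and 7.95, then 3.66, 3.24 and 7.79. Jag1 1 and Jag1 2 were below every control and Jag1 3 was close to the highest control, so the difference went from -0.32 (SE 0.35, edgeR adjusted p = 0.961) to -0.81 without Jag1 3. Lamb2, a beta chain of synapses and vessel walls, stood at 8.50, 9.45 and 9.17, then 6.96, 12.6 and 14.1. Its control libraries lay close together while the Jag1 libraries lay on either side of them, with a difference of 0.31 (SE 0.24, edgeR adjusted p = 0.955), or 0.12 without Jag1 3.

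Lama3 and Lamb3, laminin chains of epithelia, behaved unalike. Lama3 stood at 12.2, 11.3 and 14.5, then 10.6, 10.8 and 18.5, with a difference of 0.06 that became -0.24 without Jag1 3. Lamb3 was near the detection limit except in Control 1 and Jag1 3: 2.58, 0.330 and 0.136, then 0.637, 0.483 and 2.30. Those are the libraries with the highest sums of acinar genes. The part of acinar material in the Lamb3 values was not tested. Lamc3 stayed between 0.852 and 1.43 in all libraries, and Lama1 did not reach the count rule.

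The linkers of the laminin and collagen IV networks showed no difference beyond the spread. Hspg2, which encodes perlecan, stood at 54.7, 52.2 and 57.0, then 47.7, 48.8 and 76.9. Nid1 stood at 22.6, 29.7 and 36.1, then 25.5, 21.5 and 43.3, and Nid2, the second nidogen, at 10.6, 12.3 and 13.8, then 7.43, 10.8 and 13.5. In Hspg2 the controls spanned a narrow band, with Jag1 1 and Jag1 2 under it and Jag1 3 over it. The differences were 0.08 (SE 0.17, edgeR adjusted p = 0.985) for Hspg2, 0.03 (SE 0.30, edgeR adjusted p = 1.00) for Nid1 and -0.21 (SE 0.21, edgeR adjusted p = 0.956) for Nid2. All 3 were negative without Jag1 3, at -0.18, -0.33 and -0.41, and limma-voom put Nid1 at -0.03 with all libraries. Over the whole class, 13 of 18 basement membrane genes had positive differences and 5 negative, with none called and a median of 0.07, or -0.20 without Jag1 3.

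**Figure D2:**
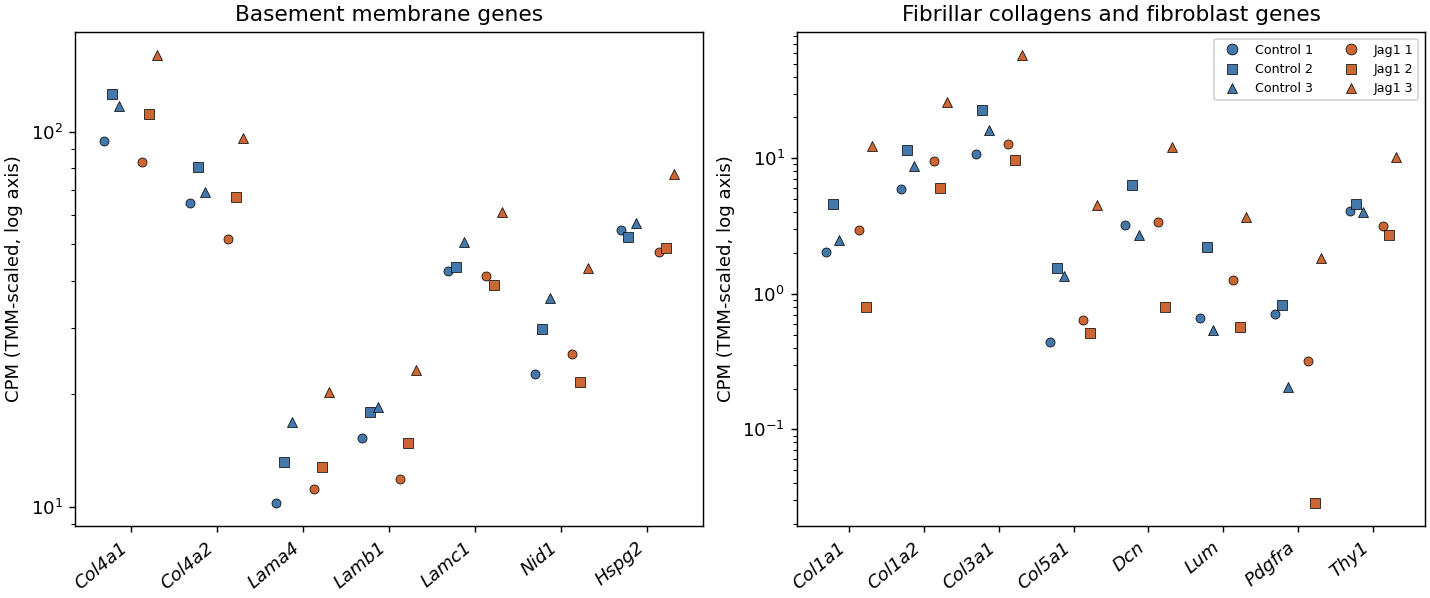
CPM on a log axis for 7 basement membrane genes and 8 fibrillar or fibroblast genes in each library, with colour for the group and marker shape for the library number. In Col1a1, Col3a1, Dcn and Thy1 the third Jag1 library sits alone above all others (58.1 CPM against at most 22.5 for Col3a1), while in Col4a1, Lamc1 and Hspg2 it sits only a little above the rest.

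Of the collagens bound to basement membranes, Col18a1 stood out. It encodes the proteoglycan collagen of vascular and epithelial basement membranes whose released C-terminal fragment is endostatin. Its CPM values were 2.63, 2.03 and 2.11 in the controls, 2.26 ± 0.327 (SD, n = 3), and 3.93, 4.46 and 7.32 in the Jag1 libraries, 5.24 ± 1.82 (SD, n = 3). Every Jag1 library was above every control. The log2 difference was 1.21 (SE 0.30), with an edgeR p of 0.00204 before adjustment and 0.653 after it over all genes. DESeq2 gave an adjusted p of 0.150. Without Jag1 3 the difference was 0.89, still with no overlap, so this gene's direction did not rest on that library. The counts are per gene and do not tell its upstream start from its downstream start, the windows shown above.

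Col15a1, the related collagen of microvessels, stood at 17.4, 22.6 and 18.6, then 15.5, 17.8 and 29.0. Its groups overlapped, with a difference of 0.08 (SE 0.23, edgeR adjusted p = 0.991), and -0.23 without Jag1 3. Col7a1, which forms the anchoring fibrils beneath epithelia, stood at 4.77, 1.26 and 0.612, then 0.478, 1.39 and 6.20. As with Lamb3, Control 1 and Jag1 3 were the high libraries, so the groups matched each other in spread and the difference was 0.24 with an SE of 1.17, or -1.20 without Jag1 3 and -0.11 in limma-voom. The part of acinar material in the Col7a1 values was not tested either.

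The interstitial fibrillar collagens were set apart by one library. Col3a1, at chr1:45311538-45349706, stood at 10.8, 22.5 and 16.2, then 12.7, 9.72 and 58.1. Col1a2 stood at 5.92, 11.5 and 8.70, then 9.56, 6.05 and 26.0, and Col1a1, at chr11:94936224-94953042, at 2.03, 4.56 and 2.51, then 2.97, 0.795 and 12.3. In each gene Jag1 3 exceeded the next library by 2.25 to 2.70-fold, and the other Jag1 libraries lay inside or below the control range. The differences were 0.68 (SE 0.88, edgeR adjusted p = 0.971) for Col3a1, 0.65 (SE 0.65, edgeR adjusted p = 0.958) for Col1a2 and 0.79 (SE 1.07, edgeR adjusted p = 0.971) for Col1a1. Without Jag1 3 they were -0.57, -0.17 and -0.73, and limma-voom, which averages on the log scale, placed Col1a1 at -0.34 with all 6 libraries. The lowest Col1a1 value was that of Jag1 2, the deepest library.

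Collagen V split by chain. Col5a1 behaved like the interstitial collagens, at 0.439, 1.54 and 1.36, then 0.637, 0.511 and 4.54, with a difference of 0.74 (SE 0.92, edgeR adjusted p = 0.971) of -0.95 without Jag1 3 and of -0.01 in limma-voom. Col5a2 was nearly flat, at 19.6, 26.0 and 26.2, then 22.5, 26.1 and 22.8, a range of 1.34-fold over the 6 libraries and a difference of -0.01 (SE 0.14, edgeR adjusted p = 1.00) whose sign turned in limma-voom (0.02). Col5a3 stood at 0.713, 1.59 and 0.543, then 1.65, 0.682 and 2.36, with a difference of 0.67, or 0.25 without Jag1 3. Thus the abundant collagen V chain was the one that did not follow Jag1 3.

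Col27a1, a fibrillar collagen best known from cartilage, was the one matrix gene below all controls in every Jag1 library. It stood at 8.94, 11.3 and 10.1, then 8.65, 5.88 and 8.61. The gap between the groups was small, 8.65 against 8.94, and the difference was -0.40 (SE 0.20, edgeR adjusted p = 0.955), or -0.48 without Jag1 3. Col11a2, a minor fibrillar chain, was lowest in Jag1 1 and Jag1 3 and highest in Jag1 2: 4.71, 3.30 and 4.42, then 2.34, 4.80 and 2.54. Of the 8 fibrillar genes, 5 had positive and 3 negative differences, none was called, and the median was 0.66, or -0.34 without Jag1 3.

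Of the 6 fibril-associated collagens, which coat collagen fibrils, 4 were highest in Jag1 3. Col14a1 stood at 3.56, 4.78 and 3.67, then 5.36, 3.55 and 10.03, a difference of 0.64 (SE 0.35, edgeR adjusted p = 0.955) that shrank to 0.14 without Jag1 3. Col16a1 stood at 0.932, 1.87 and 1.90, then 1.75, 1.14 and 4.42, a difference of 0.62 that became -0.13 without Jag1 3. Col12a1 had the largest excess in Jag1 3 of all 52 genes, at 6.37 CPM, 4.26-fold above the next library, while Jag1 2 was lowest at 0.256. Its difference turned from 1.34 (SE 1.29, edgeR adjusted p = 0.956) to -1.11 without that library. Col20a1 went the other way, at 2.41, 2.91 and 2.85, then 0.956, 2.47 and 2.42, with a difference of -0.47 (SE 0.39, edgeR adjusted p = 0.955). Col19a1 had a difference of -0.27, or -0.94 without Jag1 3. Col9a2, lowest in Jag1 3, had one of 0.16.

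Collagen VI forms beaded microfilaments in which the Col6a1 and Col6a2 chains join one of several longer chains. Col6a1 stood at 2.58, 6.10 and 4.08, then 4.57, 3.64 and 11.5, and Col6a2 at 2.74, 4.40 and 3.46, then 3.24, 2.84 and 10.7. Both were highest in Jag1 3, with differences of 0.61 (SE 0.50) and 0.65 (SE 0.53) that became -0.06 and -0.22 without it. The longer chains were not highest there. Col6a3 stood at 6.42, 13.8 and 14.1, then 6.85, 12.2 and 10.7. Col6a6 stood at 74.6, 94.8 and 74.5, then 75.8, 69.2 and 79.6, a range of 1.37-fold with a difference of -0.12 (SE 0.12, edgeR adjusted p = 0.958). Col6a6 therefore differed from Col6a1 and Col6a2 both in its level per kilobase and in its order of libraries.

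The remaining short-chain collagens, Col8a1, Col8a2, Col26a1 and Col28a1, had CPM between 0.543 and 3.07 with overlapping groups and differences of 0.04 to 0.43. Of these, Col8a1, Col26a1 and Col28a1 were highest in Jag1 3, and their differences without it were -0.29, -0.29 and -0.18. The transmembrane collagen Col13a1 stood at 11.9, 10.9 and 12.4, then 8.12, 15.1 and 13.8, with a difference of 0.08 (SE 0.21), and Col25a1 ran from 0.714 to 1.86. Neither was highest in Jag1 3.

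All 7 fibroblast and other matrix genes were highest in Jag1 3, and none was called. Sparc stood at 54.5, 74.0 and 68.5, then 64.8, 73.1 and 115, with a difference of 0.36 (SE 0.22, edgeR adjusted p = 0.955), or 0.07 without Jag1 3. Fn1, which encodes fibronectin, stood at 4.17, 1.87 and 2.99, then 3.72, 1.42 and 8.61. Mgp stood at 8.44, 11.5 and 9.24, then 9.71, 8.64 and 15.2. In these genes the other Jag1 libraries lay inside or under the control range. The differences were 0.58 for Fn1 and 0.19 for Mgp, and -0.25 and -0.09 without Jag1 3.

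The small leucine-rich proteoglycans that bind interstitial fibrils varied more. Dcn, which encodes decorin, stood at 3.23, 6.37 and 2.72, then 3.40, 0.795 and 12.04, with a difference of 0.36 (SE 1.05, edgeR adjusted p = 0.994) that became -1.02 without Jag1 3 and was -0.74 in limma-voom with all libraries. Lum, which encodes lumican, stood at 0.658, 2.20 and 0.543, then 1.27, 0.568 and 3.72, a difference of 0.66 (SE 0.77, edgeR adjusted p = 0.967) that became -0.35 without Jag1 3. Control 2 was the highest control in both genes, as it was for 6 of the 7 genes of this class and 6 of the 8 fibrillar genes, against 30.1% of all genes and 4 of the 18 basement membrane genes.

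The fibroblast surface markers were sparse. Thy1, which lymphocytes and neurons also express, stood at 4.11, 4.56 and 4.01, then 3.19, 2.70 and 10.3, a difference of 0.33 (SE 0.50, edgeR adjusted p = 0.974), or -0.53 without Jag1 3 and -0.10 in limma-voom. Pdgfra stood at 0.713, 0.824 and 0.204, then 0.319, 0.0284 and 1.83, which is 1 count in Jag1 2 and 31 in Jag1 3. Its difference of 0.20 (SE 1.15) became -1.96 without Jag1 3 and was -1.33 in limma-voom, so its sign depended on how the libraries were averaged.

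Basement membrane and fibrillar genes were then compared within each library. The mean log2 CPM of the 18 basement membrane genes was 3.39, 3.22 and 3.37 in the controls and 3.16, 3.23 and 3.81 in the Jag1 libraries. That of the 8 fibrillar genes was 1.96, 2.71 and 2.34, then 2.23, 1.78 and 3.34. The fibrillar mean thus varied more between libraries, with a standard deviation within groups of 0.63 against 0.26 for the basement membrane mean. The difference between the classes was 1.43, 0.50 and 1.03, then 0.93, 1.45 and 0.47, and the groups overlapped over nearly their whole range. Averaged by group it was 0.99 in controls and 0.95 in Jag1 islets.

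Taken as medians of the fitted differences between groups, the classes stood 0.60 apart on the log2 scale, at 0.07 for basement membrane and 0.66 for fibrillar genes. That gap depended on the model and on Jag1 3. With the acinar sum as a covariate it was 0.33, with a fibrillar median of 0.36, and with the replicate block it was 0.20. The gap was 0.02 in the other direction with limma-voom, where the fibrillar median was 0.0020, and 0.14 in the other direction without Jag1 3. Within the Jag1 group, Jag1 3 exceeded the mean of the other libraries by a median of 0.64 on the log2 scale in basement membrane genes, 1.42 in fibrillar genes and 1.86 in fibroblast and other matrix genes.

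The same contrast appeared in the ratio of summed CPM of Col4a1 and Col4a2 to that of Col1a1, Col1a2 and Col3a1, read only between libraries since it is not adjusted for length. It was 8.48, 5.34 and 6.77 in the controls and 5.34, 10.8 and 2.66 in the Jag1 libraries. Jag1 2 had the highest and Jag1 3 the lowest of the 6 ratios, with all controls between them. The numerator spanned 134.6 to 256.6 CPM and the denominator 16.6 to 96.4 CPM, so most of the spread lay in the interstitial collagens.

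**Figure D3:**
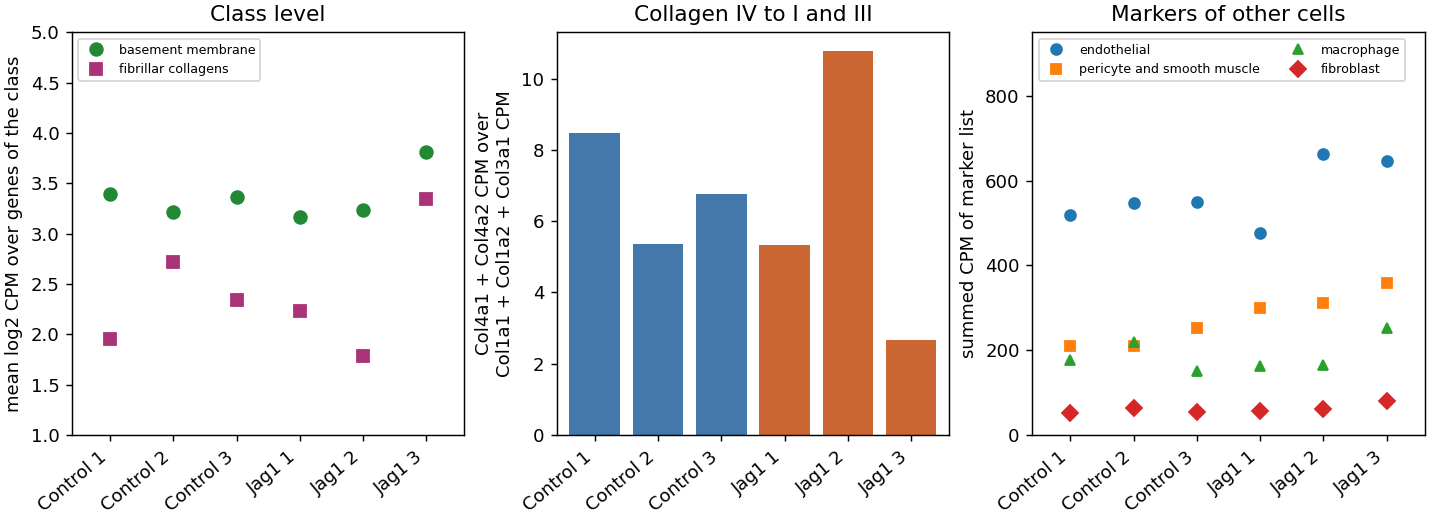
Per library, the mean log2 CPM of basement membrane and fibrillar genes, the ratio of summed Col4a1 and Col4a2 to summed Col1a1, Col1a2 and Col3a1, with bar colour for the group, and the summed CPM of 4 cell type marker lists. The ratio runs from 2.66 in Jag1 3 to 10.8 in Jag1 2, with controls between 5.34 and 8.48. The fibroblast, macrophage, and pericyte and smooth muscle sums are highest in Jag1 3.

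Markers of the cells that make matrix were summed beside these results. For fibroblasts, 12 genes outside the 52 gave 51.5, 63.7 and 54.4 CPM, then 55.7, 60.8 and 79.7, with Jag1 3 highest. Gsn and Cd34, which other cells also express, made up most of that sum. Jag1 3 was highest for 4 of the 7 tested fibroblast genes, among them Cxcl12 and Dpt, against 14.7% of all genes tested. Pi16 was lowest there. Endothelial markers (12 genes) gave 519, 547 and 549.9, then 477, 662 and 647, and the macrophage list (9 genes) 176, 219 and 150.5, then 162, 165 and 252. By summed CPM, Jag1 3 was the highest library for fibroblasts and macrophages, as for the pericyte, mesothelial and Schwann lists below, and Jag1 2 for endothelial cells. Gene by gene, Jag1 3 was highest for 7 of the 9 macrophage genes and 6 of the 12 endothelial genes, and Jag1 2 for 5 of the endothelial genes.

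The summed CPM of pericyte and smooth muscle markers (11 genes) was higher in all Jag1 libraries, at 211, 210.2 and 253.5, then 299.5, 311 and 358. Rgs5 made up most of that sum, at 141, 148 and 179.8, then 210.3, 223 and 255. Higher without overlap were 4 of the 11 genes, against 5.3% of all genes tested. Abcc9 and Des went the other way, with differences of -0.44 and -0.08 and overlapping groups. The duct sum (9 genes) was 290.5, 302 and 269, then 377, 406 and 393.5, with 2 of the 9 higher without overlap, against the same 5.3%. Spp1, 1 of these 2 and the duct gene that DESeq2 called, stood at 43.2, 30.55 and 50.1, then 101.5, 109.3 and 143.8. Krt7, the largest part of the duct sum, had overlapping groups and a difference of 0.04. The mesothelial list gave 134.0 to 157 in controls and 175 to 189.8 in the Jag1 libraries, but its defining markers Upk3b, Lrrn4 and Upk1b were at 0 in all libraries, and Krt18 and Msln, which other epithelia express, made up most of the sum. Schwann cell markers (9 genes) gave 29.7 to 32.2 in controls and 30.5 to 39.5 in the Jag1 libraries. edgeR called no tested gene of these 7 lists, and DESeq2 called 1 of the duct list and 1 of the pericyte list. The part of any of these cell types in the values of the matrix genes was not tested.

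The enzymes that make and fold collagen showed no joint shift. Of 17 tested genes that modify or fold procollagen, 11 had positive and 6 negative differences, with a median of 0.05 and none called by edgeR. Without Jag1 3 the median was -0.0049. Serpinh1, the collagen chaperone, stood at 15.3, 18.3 and 17.3, then 17.4, 21.5 and 27.7, a difference of 0.38 (SE 0.17, edgeR adjusted p = 0.955), or 0.20 without Jag1 3. Colgalt2, a collagen galactosyltransferase, was higher in all Jag1 libraries, at 4.99, 4.83 and 6.18, then 7.33, 8.44 and 7.67, a difference of 0.55 (SE 0.19, edgeR adjusted p = 0.926). Of 8 tested processing and crosslinking genes, 4 were positive and 4 negative, with a median of 0.00021. Without Jag1 3, 2 were positive and 6 negative, with a median of -0.38. Tgm2, a transglutaminase that crosslinks matrix proteins, stood at 6.74, 5.71 and 4.76, then 8.55, 8.89 and 18.3 (difference 1.04, SE 0.30, edgeR adjusted p = 0.882, or 0.60 without Jag1 3). Loxl2, a lysyl oxidase acting on collagen IV, had a difference of -0.31 (SE 0.17), and its groups overlapped.

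Receptors of the matrix were divided in sign. Of 17 tested matrix receptors, 9 were positive and 8 negative, with a median of 0.01 (-0.02 without Jag1 3) and none called by edgeR or DESeq2. Itga8, the alpha subunit of a fibronectin and nephronectin receptor found on mesenchymal cells, stood at 0.548, 0.549 and 0.883, then 2.44, 1.51 and 1.83 (difference 1.54, SE 0.43, edgeR adjusted p = 0.802). Bcam, a receptor for Lama5-containing laminins, had a difference of 0.49 (SE 0.16, edgeR adjusted p = 0.915), and its groups overlapped. For both genes leaving out Jag1 3 made little difference, at 1.57 and 0.45.

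Of 7 tested proteases and inhibitors, 6 were positive and 1 negative, with a median of 0.27, or 0.20 without Jag1 3, and all 7 were highest in Jag1 3. edgeR called none and DESeq2 called Adamts1. Adamts1, a secreted protease that cleaves proteoglycans such as versican and aggrecan, stood at 10.7, 6.32 and 8.09, then 17.2, 14.0 and 17.5, without overlap. Its difference was 0.95 (SE 0.20), with an adjusted p of 0.392 in edgeR and 0.0149 in DESeq2, and 0.89 without Jag1 3. Mmp14, a membrane-bound collagenase, had a difference of 0.60 (SE 0.32, edgeR adjusted p = 0.955), or 0.46 without Jag1 3. Of 16 tested genes of the TGF-beta pathway, a main inducer of interstitial collagen genes, 10 were positive and 6 negative, with a median of 0.11. Without Jag1 3, 7 were positive and 9 negative, with a median of -0.05. The TGF-beta co-receptor Tgfbr3 had a difference of 0.34 (SE 0.14, edgeR adjusted p = 0.955), and Smad3, the transducer of its signal, 0.40 (SE 0.23, edgeR adjusted p = 0.955).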

How the data were processed

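Estimated counts per gene were deposited by the authors as whole numbers for 6 libraries. The submitters' processing notes name bcl2fastq, kallisto, limma and build GRCm38 (mm10), without versions. The annotation, the summing of transcripts to genes and the strand setting were not given in the sources used here. Reads from overlapping genes on opposite strands may therefore not be told apart. For Col4a1 and Col4a2, only 0.0664% and 0.243% of 31-base words also occurred in transcripts of other genes on either strand. The authors' deposited table of the same comparison holds log2 fold changes, mean log2 expression, p-values and 2 scores (t and B), of which the log2 fold change, the mean and the p-values were copied.

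The row without a gene name, 0.00896% to 0.0155% of counts, was left out. Genes were filtered with filterByExpr (minimum count 10), which left 14073 of 34945, and all 52 matrix genes passed. Counts were scaled by TMM and tested with edgeR's robust quasi-likelihood test, with Benjamini-Hochberg adjustment over all genes tested and a threshold of 0.05. The test was run on simulated data first. The standard error is the log2 fold change divided by the square root of F. CPM is the count per TMM-scaled library total, on the usual per-million scale; log2 CPM used a prior count of 2. CPM per kilobase used the longest GENCODE vM21 transcript, not kallisto's effective lengths, which were not given in the sources used here. Symbols matched that annotation for 34210 genes and for all 52 matrix genes. A count of 3 equals 0.0852 to 0.204 CPM, depending on the library, and this covers counting error only. The share of 31-base words that a matrix gene shares with other genes' transcripts was at most 7.87%, in Nid2. An exact permutation test of 3 against 3 libraries cannot go below 0.1, so none is given.

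The matrix genes, their classes and the pathway and marker lists were chosen with earlier results of these data known, so lists are described by counts and medians with no test. Values in every library are given for set basement membrane, fibrillar and fibroblast genes. They are also given for most of the up to 3 genes of smallest p in each class. From each pathway list the up to 2 genes of smallest p are named, some with the fitted difference only. The other matrix genes named are the remaining members of a class. The values of 1 of the 52 genes are not reported here, while counts and medians include it. Alternatives were DESeq2, limma-voom, RLE and upper-quartile scaling, no filter, a non-robust fit, the replicate number as a block, the acinar sum as a covariate, acinar genes left out, wider classes, and each library left out. Tools were R 4.3.3, edgeR 4.0.16, limma 3.58.1, DESeq2 1.42.0, Python 3.11.15 and matplotlib 3.10.9.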

Additional observations from a re-analysis of the deposited data

How the results depend on the processing

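No matrix gene was called in any alternative run, so that count of 0 was the same throughout. The number of genes called over the whole table was 3 in the reported fit, 36 with DESeq2 and 9 with no filter on low counts. Leaving out a library gave 2 to 6 (2 without Jag1 1, 6 without Jag1 2, 5 without Jag1 3). The basement membrane median ran from -0.20 (without Jag1 3) to 0.18 with a library left out, the fibrillar median from -0.34 (without Jag1 3) to 1.04 (without Jag1 2), and their difference from -0.92 (without Control 2) to 0.14 (without Jag1 3). With limma-voom the fibrillar median was 0.0020 and the difference 0.021. Same-numbered libraries did not deviate together (correlations of -0.186, 0.11 and -0.294). With 3 libraries per group this cannot exclude pairing, which the labels do not state. With the acinar covariate the fibrillar median was 0.36 and the difference -0.33. With a replicate block, 3 genes were called, the fibrillar median was 0.23 and the difference between the classes -0.20. Among the genes followed one by one, that block turned the sign of Col4a2 (-0.035), Nid1 (-0.010), Dcn (-0.17) and Pdgfra (-0.59).

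No matrix gene's call changed, but signs did, also for differences far from 0. Signs were followed one by one for only part of the 52 genes, so the lists here are not complete. Limma-voom turned Col1a1 (-0.34), Col4a2 (-0.036), Col5a1 (-0.012), Col5a2 (0.016), Col7a1 (-0.11), Dcn (-0.74), Nid1 (-0.030), Pdgfra (-1.33) and Thy1 (-0.10). Col5a2 also turned with upper-quartile scaling (0.014), no filter (0.0063), the acinar covariate (0.0088) and acinar genes left out (0.0016), and the acinar covariate turned Col4a2 (-0.047) and Pdgfra (-0.10). Among genes not followed this way, Col12a1 (-1.11), Lamb3 (-0.89) and Lama3 (-0.24) also turned without Jag1 3, and they were not the only ones. With a library left out, 39 of the single-gene values followed changed sign and 195 did not. Their ranges were Col4a1 -0.21 to 0.27, Col4a2 -0.26 to 0.19, Col15a1 -0.23 to 0.25, Lama4 -0.16 to 0.33, Lamb1 -0.36 to 0.14, Lamc1 -0.19 to 0.17, Nid1 -0.33 to 0.23, Hspg2 -0.18 to 0.20, Col7a1 -1.20 to 1.48, Col1a1 -0.73 to 1.33, Col1a2 -0.17 to 1.02, Col3a1 -0.57 to 1.10, Col5a1 -0.95 to 1.21, Col5a2 -0.13 to 0.063, Col6a1 -0.057 to 0.97, Col6a2 -0.22 to 0.98, Col6a6 -0.18 to 0.0054, Col13a1 -0.10 to 0.30, Col16a1 -0.13 to 0.98, Col25a1 -0.22 to 0.39, Dcn -1.02 to 0.90, Fn1 -0.25 to 1.03, Lum -0.35 to 1.59, Mgp -0.086 to 0.35, Pdgfra -1.96 to 0.85 and Thy1 -0.53 to 0.66. The causes were not tested. Pdgfra had low counts, 1 to 31 a library, and its value of 1 count was in Jag1 2, the deepest library.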
